A study of Physcomitrium patens with 4 samples.

Results

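Expansins are small secreted proteins that loosen the plant cell wall. They weaken the non-covalent contacts between cellulose and the polysaccharides that bind it, without cutting either chain, and they work best at the acid pH that plasma membrane proton pumps create in the wall. Alpha-expansins are known for the acid-induced extension of growing walls, and beta-expansins, which include the group 1 allergens of grass pollen, form a related branch of the family. Most land plants, mosses included, carry many alpha-expansin genes.

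The 4 genes described here were Pp1s11_29V6 and Pp1s466_14V6, matched to the Arabidopsis alpha-expansins EXPA14 and EXPA1, and Pp1s251_59V6 and Pp1s147_37V6, both matched to the beta-expansin EXPB3. They were taken by gene ID from the 18800 genes listed, 22 of which have an expansin as their best Arabidopsis match. The symbols are those of the matches, so 1 symbol can stand for several moss genes: 7 genes were matched to EXPA14, 4 to EXPA1, 4 to EXPA9, 3 to EXPB3, 2 to EXPA15 and 2 to EXPA16. The 4 genes were chosen by their tag counts, namely the high count at 48 h and its absence at 72 h. Their counts are therefore given as a description and no test was made of them.

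The cells were wild-type cells of the moss Physcomitrella patens (Physcomitrium patens). Protonemata, the filaments of the young gametophyte, were digested with the enzyme mixture Driselase in mannitol to give protoplasts, which are cells without walls, and these were sampled fresh (0 h) or after 24, 48 and 72 h in liquid medium with ammonium tartrate and mannitol and without hormones. Cultures were dark for the first 24 h and then kept under a daily cycle of light and darkness, so that between 24 and 48 h the effect of light cannot be told apart from that of time in culture. The study describes the cultured cells as first walled, then polarised and back in the cell cycle, and then divided. For each time point the sampled RNA went as 1 pool into a single library, so there were no replicates and no difference below has a replicate check.

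Digital gene expression tag profiling was used, in which each transcript gives 1 short tag beside its last CATG site, so that tag counts do not grow with transcript length. The gene counts summed to between 1750184 and 2445814 tags per library. Levels are CPM, tags per 1000000 gene-mapped tags of the library, with 95% Wilson intervals, which cover counting error only and not the spread between cultures or amplification. A level of 3 tags, the value set here in place of a count of 0, was 1.33, 1.71, 1.53 and 1.23 CPM at 0, 24, 48 and 72 h. Fold changes were computed after TMM scaling (trimmed mean of M-values) of the library sizes, so that they differ somewhat from the ratio of the levels, and carry exact conditional 95% intervals of the same limited meaning. Against a count of 0, the fold that 3 tags in that library would leave is given as a lower bound. This bound is a convention and not a 95% limit. The upper Wilson limit of a count of 0 lies above 3 tags, and counting error in the other library is left out. Where the other count is low, the fold may therefore be smaller than the bound. A gene was said to rise or fall where it differed by 4-fold or more and had 100 tags or more in one of the libraries, among genes with at least 10 tags in the pair.

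The 72 h library stood apart from the others. Its 10 most abundant genes took 24.2% of its tags, against 4.39% to 7.90% in the other libraries, and by the study's own account far more of its raw tags than of the others were lost to adaptor sequence. Of all genes listed, 88.9% and 86.6% were seen at 0 and 24 h and 74.0% and 76.3% at 48 and 72 h. With 1 library per time point these features cannot be told apart from culture time. Since whole cultures were sampled, fewer cells expressing a gene and less RNA per cell cannot be told apart either.

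All 4 genes had their tags almost entirely in the 48 h library. Each was scarce in fresh protoplasts and at 24 h, was among the well-counted genes at 48 h and had no tag at 72 h. The plot of levels by time shows both features. Of the summed TMM-scaled level over the 4 libraries, 48 h held 99.2% for Pp1s11_29V6, 98.9% for Pp1s147_37V6, 98.6% for Pp1s251_59V6 and 94.9% for Pp1s466_14V6.

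**Figure D1:**
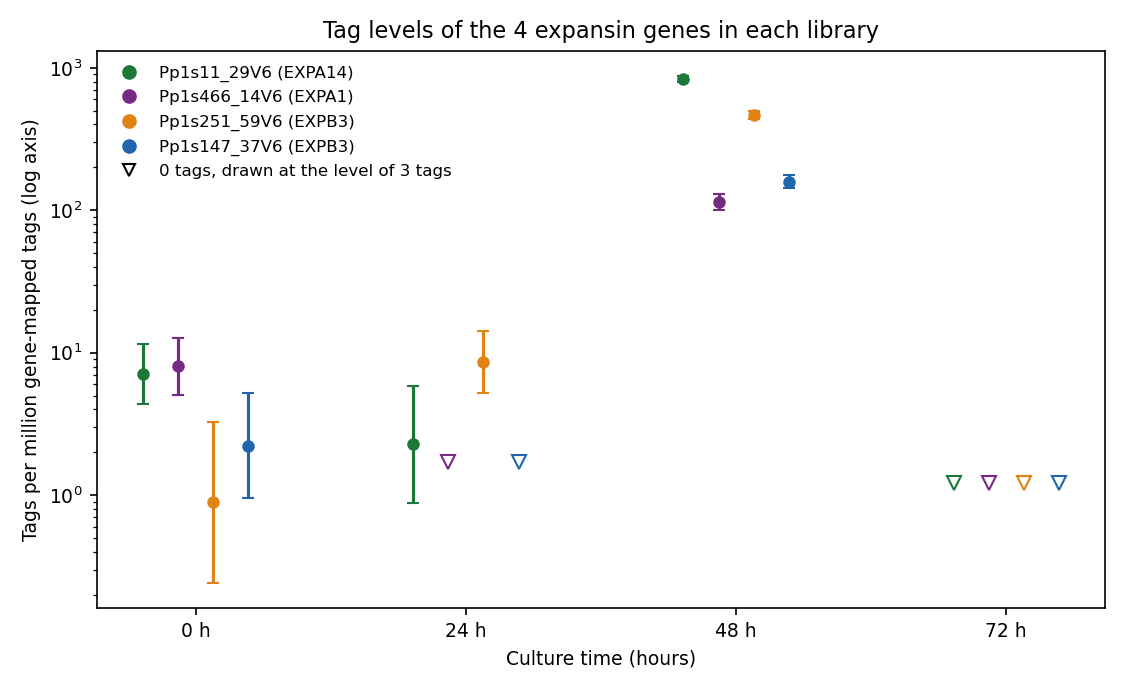
CPM, tags per 1000000 gene-mapped tags (log axis), of the 4 expansin genes in the library of each culture time, with bars for 95% Wilson intervals and open triangles for a count of 0 drawn at the level of 3 tags. All 4 genes are above 100 CPM at 48 h, below 10 at 0 and 24 h, and at 0 tags at 72 h.

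Pp1s11_29V6, an alpha-expansin gene matched to EXPA14, was the most abundant of the 4. It had 16, 4, 1636 and 0 tags at 0, 24, 48 and 72 h. These are 7.12 (95% interval 4.38 to 11.6), 2.29 (0.889 to 5.88), 833 (794 to 874) and 0 (0 to 1.57) CPM. At 48 h it ranked 183 by tag count among the 18800 genes, above 99.0% of them, whereas it ranked 11485 at 0 h and 14557 at 24 h. The gene was thus counted in 3 of the 4 libraries and was abundant in 1. Between 0 and 24 h its level was 3.52-fold lower (95% interval 1.13 to 14.5), a change below the limit of 4-fold and resting on few tags. Against fresh protoplasts its level at 48 h was 151-fold higher (95% interval 92.9 to 265).

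Pp1s466_14V6, the alpha-expansin gene matched to EXPA1, was the least abundant of the 4 at 48 h. It had 18, 0, 224 and 0 tags, which is 8.01 (95% interval 5.07 to 12.7), 0 (0 to 2.19), 114 (100.1 to 130.0) and 0 (0 to 1.57) CPM. It ranked 11093 in fresh protoplasts and 1554 at 48 h. Its 18 tags at 0 h were more than those of the other 3 genes, although its interval there overlapped that of Pp1s11_29V6. From 0 to 24 h its level was at least 5.28-fold lower, too few tags for a call. At 48 h it was 18.4-fold higher than at 0 h (95% interval 11.4 to 31.7), a smaller difference than for the other 3 genes, whose intervals all lay above 31.7.

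Pp1s251_59V6 is one of the beta-expansin genes matched to EXPB3. Its counts were 2, 15, 921 and 0 tags, or 0.890 (95% interval 0.244 to 3.24), 8.57 (5.19 to 14.1), 469 (439.6 to 500.2) and 0 (0 to 1.57) CPM. It was the only one of the 4 with more tags at 24 h than in fresh protoplasts, 8.53-fold higher (95% interval 1.98 to 76.9) on 2 and 15 tags. At 48 h it ranked 351 by tag count, after ranks of 15674 at 0 h and 11266 at 24 h. The level at 48 h was 682-fold that of fresh protoplasts (95% interval 188 to 5638), and the width of this interval comes from the 2 tags at 0 h.

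Pp1s147_37V6, a second gene matched to EXPB3, had 5, 0, 312 and 0 tags. Its levels were 2.22 (95% interval 0.9502 to 5.21), 0 (0 to 2.19), 159 (142 to 177) and 0 (0 to 1.57) CPM. It ranked 1118 at 48 h and 14308 at 0 h. It was 92.4-fold higher at 48 h than in fresh protoplasts (95% interval 39.2 to 286). At 48 h the intervals of the 4 genes did not overlap, in the order Pp1s11_29V6, Pp1s251_59V6, Pp1s147_37V6 and Pp1s466_14V6. At 0 h the order was different and neighbours in it overlapped, with Pp1s466_14V6 and Pp1s11_29V6 above Pp1s147_37V6 and Pp1s251_59V6.

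The step from 24 to 48 h asks what changed as the cells left the dark and re-entered the cell cycle. All 4 genes rose in it, where 7.5% of the 14312 genes tested rose and 6.88% fell. Pp1s11_29V6 went from 4 to 1636 tags, 532-fold higher (95% interval 208 to 1956). Pp1s251_59V6 went from 15 to 921 tags, 79.9-fold higher (95% interval 48.2 to 143). The bound was 135-fold or more for Pp1s147_37V6, which had no tag before the step. Pp1s466_14V6, likewise at 0 tags before it, was higher by 97.2-fold or more. The genes were chosen for these values, so their number is not set against the share of all genes. The interval of Pp1s11_29V6 lay above that of Pp1s251_59V6, and the values of the other 2 genes are bounds that cannot be ordered.

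The step from 48 to 72 h asks what changed as the first divisions were made. All 4 genes fell in it, where 7.12% of 12648 genes tested fell and 7.66% rose. Pp1s11_29V6 was at least 516-fold lower, Pp1s251_59V6 at least 290.4-fold lower, Pp1s147_37V6 at least 98.4-fold lower and Pp1s466_14V6 at least 70.6-fold lower. Each bound is set by the count at 48 h and by the depth at 72 h, and says nothing of the differences between the genes. Leaving out the 4 genes, which were chosen for this loss, 11 of 1740 genes with at least 200 tags at 48 h (0.632%) had no tag at 72 h. Of the 2 other expansins with that many tags, Pp1s313_58V6 was at 0 and Pp1s246_53V6 was not.

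**Figure D2:**
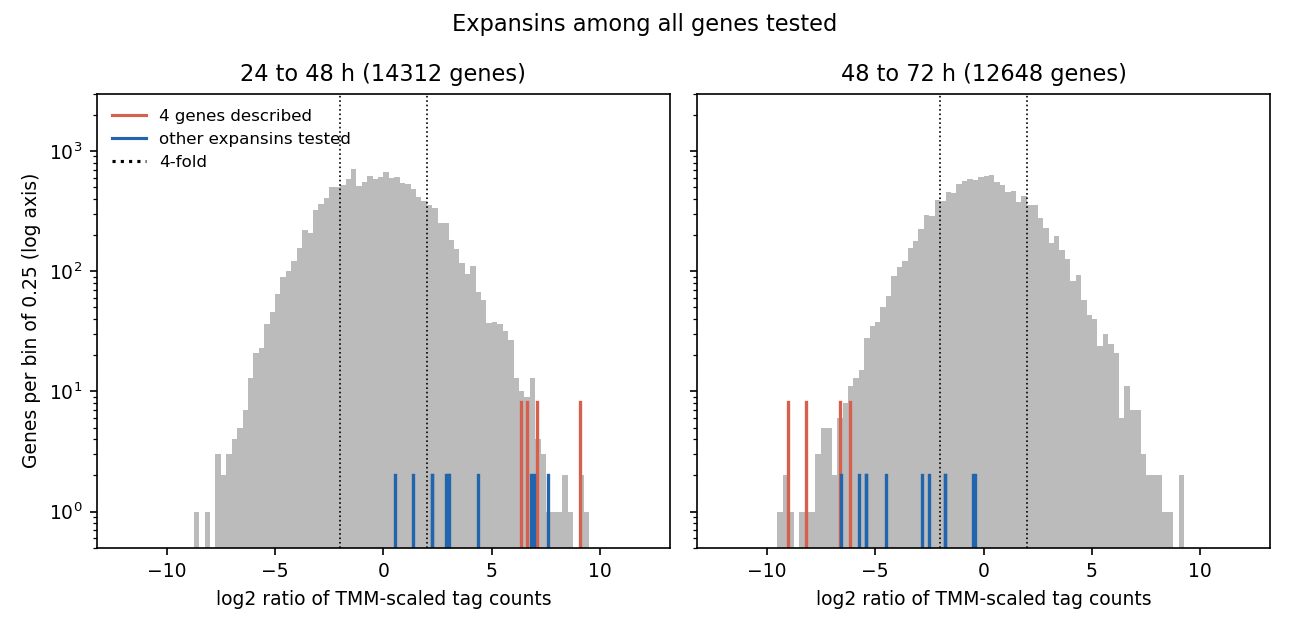
Number of genes (log axis) by log2 ratio of TMM-scaled tag counts from 24 to 48 h and from 48 to 72 h for all genes tested, with a count of 0 set to 3 tags, tall red lines for the 4 genes described, short blue lines for the other expansins tested and dotted lines at 4-fold. The 4 genes lie between 6.32 and 9.06 in the first panel and between -9.01 and -6.14 in the second, and all 11 other expansins tested lie on the same side of 0 under TMM, although by total tags Pp1s75_138V6 does not in the first panel.

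The first 24 h and the comparison of 72 h with fresh protoplasts gave no call for any of the 4 genes. From 0 to 24 h, 2.44% of 15077 genes rose and 4.94% fell, and none of the 4 genes held the 100 tags that a call needs in either library. Between 0 and 72 h, where 6.09% of 14375 genes rose and 8.02% fell, the highest of their counts was 18 tags. With 3 tags in place of 0, the level at 72 h was at least 3.83-fold lower for Pp1s466_14V6 and at least 3.41-fold lower for Pp1s11_29V6. The low counts at 0 h allow no larger bound, and their counting error, which is left out, makes these bounds loose. Between 24 and 72 h 7.07% of 14225 genes rose and 5.66% fell, and Pp1s251_59V6, the only one of the 4 with enough tags to be tested, was at least 3.63-fold lower without a call. Against fresh protoplasts all 4 genes rose at 48 h, where 6.51% of 14432 genes rose and 9.56% fell.

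The other expansins show how far the course of the 4 genes was shared. The family list holds 22 genes, 19 alpha-expansins and 3 beta-expansins, and 20 of them are listed with both of the domains that make up an expansin, the barrel domain and the carbohydrate-binding domain behind it. Pp1s196_32V6 is listed with the C-terminal domain only and Pp1s11_41V6 with none, and no gene outside the list has either domain. All 4 genes described have both. Tags of 11, 11, 16 and 7 of the 22 genes were seen at 0, 24, 48 and 72 h. Expansins thus went against the trend of all genes, of which fewer were seen at 48 h than at 0 h. The counts of all 22 genes are shown in the plot of the family.

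**Figure D3:**
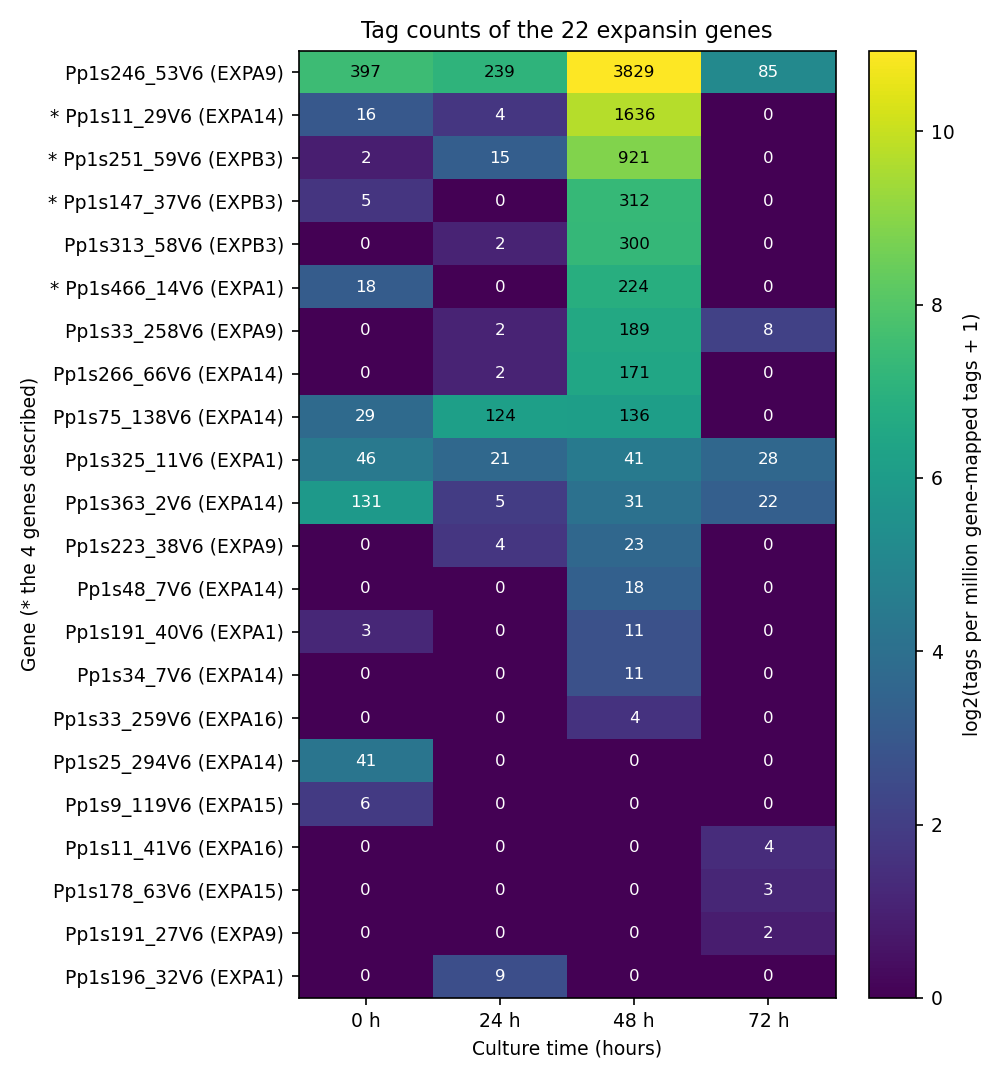
Tag counts (numbers) and log2(CPM + 1) (colour) of the 22 expansin genes in the libraries of the 4 culture times, ordered by the count at 48 h, with a star for the 4 genes described. The column of 48 h holds the highest counts, led by 3829 tags of Pp1s246_53V6, and the column of 72 h is 0 for 15 of the 22 genes.

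Pp1s246_53V6, an alpha-expansin gene matched to EXPA9, was the most abundant expansin in each library. It had 397, 239, 3829 and 85 tags, or 177 (95% interval 160.1 to 195), 137 (120.3 to 155), 1949 (1889 to 2012) and 34.8 (28.1 to 43.0) CPM. Its rise between 24 and 48 h was 20.9-fold (95% interval 18.3 to 23.9). Its level then dropped, being 42.6-fold lower in the last library (95% interval 34.4 to 53.5). It went the same way as the 4 genes but from a level that was already high in fresh protoplasts, and it kept tags at 72 h. Of its summed scaled level, 87.6% lay at 48 h.

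Among the less abundant genes, 3 ran like the 4 described. Pp1s313_58V6, the third gene matched to EXPB3, had 0, 2, 300 and 0 tags, was 195-fold higher at 48 h than at 24 h (95% interval 53.6 to 1620) and at least 94.6-fold lower at 72 h. Pp1s266_66V6, matched to EXPA14, had 0, 2, 171 and 0 tags, 111-fold higher (95% interval 30.3 to 926) and then at least 53.9-fold lower. Pp1s33_258V6, matched to EXPA9, had 0, 2, 189 and 8 tags, 123-fold higher (95% interval 33.6 to 1023) and then 22.3-fold lower (95% interval 11.1 to 52.5). None of these 3 had a tag in fresh protoplasts (95% interval 0 to 1.71 CPM), which overlaps the intervals of Pp1s251_59V6 and Pp1s147_37V6 there. Each had 90% or more of its scaled level at 48 h, as had 34 of the 6696 genes other than the 4 described that reached 100 tags somewhere (0.508%). These 3 were among 6 such expansins. They reached 100 tags only through the 48 h library, so that the limit itself leans their share towards 48 h. The comparison with all genes is therefore a description and no support for a peak.

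Other expansins ran differently. Pp1s363_2V6, matched to EXPA14, was a gene of fresh protoplasts, with 131, 5, 31 and 22 tags. Its level was 23.0-fold lower after 24 h (95% interval 9.62 to 72.1), a fall, and its 8.07-fold higher level at 48 h (95% interval 3.11 to 26.6) stayed under 100 tags. Pp1s75_138V6, also matched to EXPA14, was the only expansin to rise in the first 24 h, with 29, 124, 136 and 0 tags and a 4.86-fold higher level (95% interval 3.22 to 7.56). From 24 to 48 h it was 1.43-fold higher by TMM (95% interval 1.11 to 1.84) and 1.02-fold lower by total tags (95% interval 0.796 to 1.31), so that its direction depends on the scaling. It fell by 72 h, at least 42.9-fold lower. Pp1s325_11V6, matched to EXPA1 as is Pp1s466_14V6, stayed between 11.4 and 20.9 CPM, with 46, 21, 41 and 28 tags, and was called in no step. Genes with the same match thus had different courses: of the 7 genes matched to EXPA14, Pp1s11_29V6 was highest at 48 h, Pp1s363_2V6 and Pp1s25_294V6 at 0 h, the last with 41 tags at 0 h and none later.

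The remaining 11 genes had at most 41 tags in any library. Pp1s223_38V6, Pp1s48_7V6, Pp1s191_40V6, Pp1s34_7V6 and Pp1s33_259V6 had 23, 18, 11, 11 and 4 tags at 48 h and no more than 4 in any other library. Pp1s25_294V6 and Pp1s9_119V6 were seen at 0 h only, with 41 and 6 tags, and Pp1s196_32V6 at 24 h only, with 9. Pp1s11_41V6, Pp1s178_63V6 and Pp1s191_27V6 had 4, 3 and 2 tags, all at 72 h. None of these 11 genes could be called at 100 tags.

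Over the family, 8 of the 22 genes rose from 24 to 48 h and none fell, and 9 fell from 48 to 72 h and none rose. Of the 18 genes other than the 4 described, 4 rose in the first of these steps, where 11 had enough tags to be tested, and 5 of 11 tested fell in the second. The shares of all genes that rose and fell in these steps are the 7.5% and 7.12% given above. In the first 24 h 1 of the 22 genes rose, Pp1s75_138V6, and 1 fell, Pp1s363_2V6. The median log2 change of the 11 other expansins tested was 2.97 from 24 to 48 h and -2.86 from 48 to 72 h, beside medians of -0.31 and 0.01 over all genes tested. Both expansin medians fall on a gene with a count of 0, Pp1s48_7V6 (0 to 18 tags) and Pp1s223_38V6 (23 to 0 tags). They are thus bounds set by the 3 tags in place of 0 and not measured changes. A gene without tags at 24 and 72 h enters these calls and medians only through its tags at 48 h, so that they lean towards a peak there. The same holds for the 10 of 12 other expansins with at least 10 tags that had their highest scaled level at 48 h, beside 25.1% of the 16009 such genes other than the 4 described. With total tags in place of TMM the number was 9 beside 21.8%, the gene that moved being Pp1s75_138V6.

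The summed level of the family changed with that of the 4 genes. All expansins together had 694, 427, 7857 and 152 tags, or 309 (95% interval 287 to 333), 244 (222 to 268), 4000.1 (3913 to 4089) and 62.1 (53.02 to 72.8) CPM. The 4 genes described gave 41, 19, 3093 and 0 of these tags. Their share of the family was 5.91% (95% Wilson interval 4.38 to 7.92) at 0 h, 4.45% (2.87 to 6.84) at 24 h, 39.4% (38.3 to 40.5) at 48 h and 0% (0 to 2.46) at 72 h. The swing of this share follows from the choice of the 4 genes by their counts at 48 and 72 h. Pp1s246_53V6 held 57.2%, 56.0%, 48.7% and 55.9% in the same order. Pp1s11_29V6 alone took 20.8% of the family at 48 h (95% interval 19.9 to 21.7), Pp1s251_59V6 11.7% (11.03 to 12.5), Pp1s147_37V6 3.97% (3.56 to 4.43) and Pp1s466_14V6 2.85% (2.51 to 3.24).

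**Figure D4:**
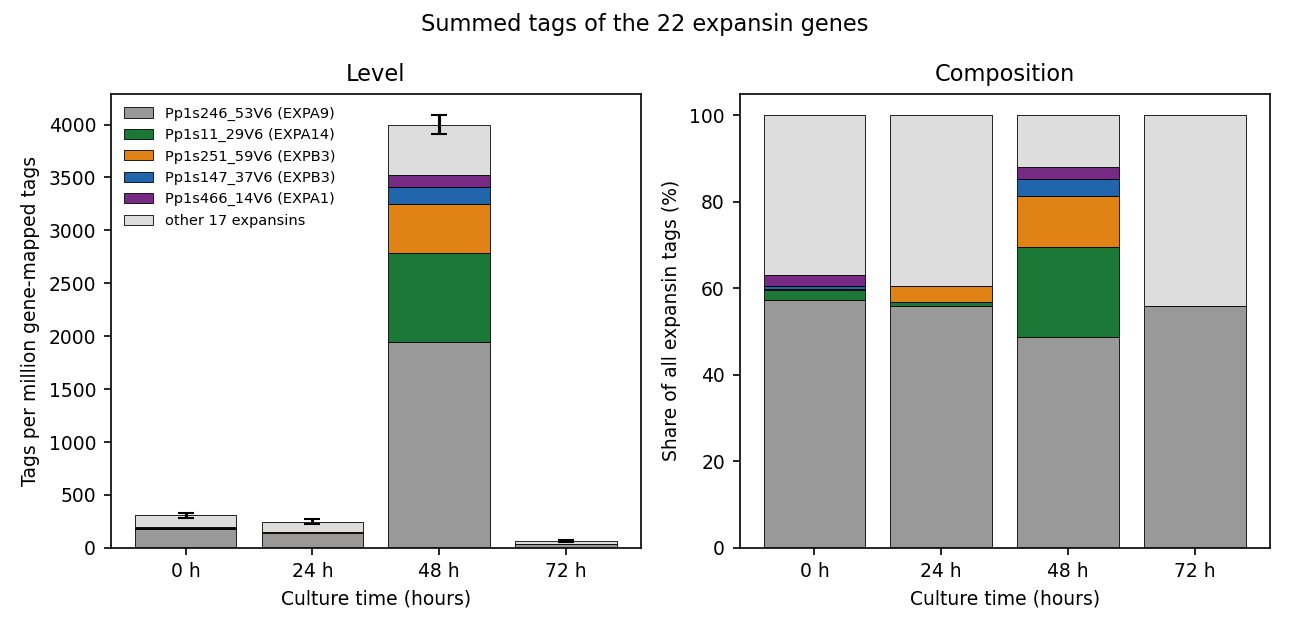
Summed tags of the 22 expansin genes in the libraries of the 4 culture times, as CPM with a 95% Wilson interval for the sum (left) and as the percentage of all expansin tags (right), stacked by gene. The sum is 4000.1 CPM at 48 h against 62.1 to 309 in the other libraries, and the 4 genes described make up 39.4% of it at 48 h.

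The sum of the 18 other expansins, which leaves out the 4 genes chosen for their peak, had the same course. It was 15.2-fold higher at 48 h than at 24 h (95% interval 13.7 to 16.9) and 29.6-fold lower at 72 h (95% interval 25.2 to 35.1). Pp1s246_53V6 gave 3829 of the 4764 tags of this sum at 48 h, and the 17 genes left after it were 7.202-fold higher (95% interval 6.11 to 8.53) and then 13.2-fold lower (95% interval 10.3 to 17.2). Of the 935 tags of these 17 genes at 48 h, Pp1s313_58V6, Pp1s33_258V6 and Pp1s266_66V6 gave 300, 189 and 171. The course of both sums is thus mainly that of a few genes. The 3 beta-expansin genes summed to 7, 17, 1533 and 0 tags, which was 1.01%, 3.98%, 19.5% (95% interval 18.65 to 20.4) and 0% of all expansin tags. The 19 alpha-expansin genes summed to 687, 410, 6324 and 152 tags. The beta-expansin share was highest at 48 h, where alpha-expansins still gave 80.5% of the tags. Of the 3 beta-expansin genes, 2 are among the 4 chosen by their counts, with 921 and 312 of the 1533 tags at 48 h. The swing of the beta-expansin share therefore follows in large part from that choice.

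Genes with the most similar course were sought over the 4 libraries among the 6699 other genes with at least 100 tags in a library, by the Euclidean distance between log2(TMM-scaled CPM + 1) after each gene's mean was subtracted. For Pp1s11_29V6 the nearest gene was Pp1s147_37V6, at a distance of 1.70, followed by Pp1s452_10V6, matched to the YGGT family gene YLMG2, at 1.87 and by Pp1s374_42V6, a gene of the RuBisCO small subunit, at 2.15. Pp1s452_10V6 (1.16) and Pp1s374_42V6 (1.27) were also the nearest and the third nearest to Pp1s147_37V6, with Pp1s242_42V6, a gene of the ribosomal protein PSRP-3/Ycf65, between them at 1.25. The nearest genes to Pp1s466_14V6 were Pp1s352_14V6, another RuBisCO small subunit gene, at 0.642, PSBQA (Pp1s1_461V6), of the oxygen-evolving complex of photosystem II, at 0.764 and Pp1s280_21V6, which has no description, at 0.799. For Pp1s251_59V6 they were Pp1s297_72V6, of the CAP family of secreted cysteine-rich proteins, at 0.909, the alpha/beta-hydrolase gene Pp1s241_102V6 at 1.31 and Pp1s385_3V6, without a description, at 1.496. The nearest expansin to Pp1s251_59V6 was Pp1s313_58V6, also matched to EXPB3, at rank 4 of the 6699 genes, and Pp1s147_37V6 ranked 15. For Pp1s147_37V6 the nearest expansin was Pp1s466_14V6 at rank 5, and the EXPB3 matches Pp1s313_58V6 and Pp1s251_59V6 ranked 11 and 66. Among the expansins compared, Pp1s363_2V6 lay at ranks from 1558 to 4018 and Pp1s75_138V6 at ranks from 176 to 1728, the latter being the farther of the pair from Pp1s466_14V6. These distances compare 4 libraries and say nothing of shared control. The genes described were chosen for the same pattern in these libraries, so that nearness among them follows in part from the choice.

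Several of these neighbours belong to photosynthesis, and the light-harvesting antenna genes, which pass absorbed light to the photosystems, also had their highest sum at 48 h. The 35 antenna genes summed to 12135, 3873, 58462 and 12988 CPM at 0, 24, 48 and 72 h. Their sum at 72 h was thus above those at 0 and 24 h. The expansin sum at 72 h, 62.1 CPM, was instead below its 309 and 244 CPM at 0 and 24 h. Of the 33 tested from 24 to 48 h, 22 rose and none fell, where 7.5% of all genes tested rose and 6.88% fell. Of the 32 tested from 48 to 72 h, 11 fell and 1 rose, where 7.12% of all genes fell and 7.66% rose. In the first 24 h 16 of 32 tested fell and none rose, beside 4.94% and 2.44% of all genes. LHCB3 (Pp1s254_3V6) went from 197 to 18668 tags between 24 and 48 h, 123-fold higher (95% interval 107 to 143). From 48 to 72 h Pp1s19_13V6, matched to LHCB2.1, was 56.9-fold lower (95% interval 49.7 to 65.5). Pp1s23_96V6, matched to LHCB2.2, was 4.81-fold higher in that step (95% interval 4.17 to 5.57). The part of light in the change of the expansin genes was not tested.

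The counts of other wall genes are small and are read beside the shares of all genes tested, 7.5% higher and 6.88% lower from 24 to 48 h and 7.66% higher and 7.12% lower from 48 to 72 h. Xyloglucan endotransglucosylase/hydrolases cut and rejoin the xyloglucan that ties cellulose, and of their 20 genes 11 were tested from 24 to 48 h, of which 3 rose and 1 fell, and 12 from 48 to 72 h, of which 1 rose and 2 fell. Among them, Pp1s346_19V6 ran like the expansins, with 12, 106 and 0 tags at 24, 48 and 72 h. It was 11.5-fold higher at 48 h (95% interval 6.31 to 23.0) and then at least 33.4-fold lower. Pp1s309_36V6 ran the opposite way, 5.08-fold lower (95% interval 3.89 to 6.74) and then 20.2-fold higher (95% interval 15.7 to 26.4), although both genes are matched to XTH9. Of 25 genes of cellulose synthase and related synthases, 3 of 17 tested rose from 24 to 48 h and none fell, and 2 of 15 tested fell from 48 to 72 h and none rose. Pp1s36_214V6, matched to ATCSLA09, of a family that makes mannans, was 22.2-fold higher at 48 h (95% interval 13.6 to 38.6), and Pp1s224_44V6, matched to ATCSLC08, was 21.0-fold lower at 72 h (95% interval 8.73 to 65.9).

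Pectin is the gel between the cellulose fibrils. A list of 28 genes, called pectin-cutting here, was drawn from the words pectate lyase, polygalacturonase and pectin lyase-like. The last of these names a superfamily and does not state that a gene cuts pectin. Of the list, 4 rose and 2 fell of 16 tested from 24 to 48 h, and 4 rose and 2 fell of 14 tested from 48 to 72 h, beside the shares of all genes just given. Pp1s236_72V6 was 39.7-fold higher at 48 h (95% interval 25.2 to 66.4) and 23.8-fold lower at 72 h (95% interval 15.7 to 37.9), while Pp1s18_221V6 was at least 74.3-fold lower and then at least 90.9-fold higher. Both are described only as pectin lyase-like superfamily proteins. Of 15 genes for pectin methylesterases and their inhibitor family, which set how tightly pectin is cross-linked, 1 of 9 tested rose and none fell from 24 to 48 h, and 2 rose and 2 fell of 7 tested from 48 to 72 h. Pp1s3_533V6 was 8.76-fold higher at 48 h (95% interval 5.78 to 13.8) and 13.8-fold lower at 72 h (95% interval 7.70 to 27.2), and Pp1s32_31V6 was 12.7-fold higher at 72 h (95% interval 9.76 to 16.9).

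None of the 7 endoglucanase, 12 callose synthase and 7 wall glycoprotein genes was called in either step, where 3, 10 and 4 and then 2, 9 and 5 of them had enough tags to be tested. Few of their tags reach the minimum for a call, so this does not mean that their levels were steady. The wall glycoproteins summed to 30, 215 and 41 tags at 24, 48 and 72 h. Their median log2 changes were 3.06 and -2.86, on 4 and 5 genes with few tags. The medians of the other expansins tested are bounds set by the 3 tags in place of 0, so the 2 lists are not compared by them. The medians were 0.84 and -1.66 for endoglucanases and -0.13 and -0.15 for callose synthases. Of the 5 beta-galactosidase genes, which trim galactose from wall polymers, 2 of 3 tested rose from 48 to 72 h, with Pp1s149_266V6 8.46-fold higher (95% interval 5.84 to 12.6). The plasma membrane proton pumps acidify the wall in which expansins act, and none of their 7 genes, 6 of them tested, was called from 24 to 48 h. Their summed level was 731, 492, 374 and 795 CPM, lowest at 48 h, but over TMM-scaled library sizes it was 618, 369, 409.6 and 1145 and lowest at 24 h. From 48 to 72 h, 1 of 5 pump genes tested rose, Pp1s321_30V6, matched to HA6, from 15 to 511 tags and 36.0-fold higher (95% interval 21.6 to 64.8).

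In the first 24 h, when the 4 genes had few tags, 4.94% of all genes tested fell and 2.44% rose, so that falls outnumbered rises over all genes too. Of genes tested, 1 of 14 xyloglucan endotransglucosylase/hydrolase, 3 of 19 cellulose and related synthase, 5 of 18 pectin-cutting and 3 of 4 wall glycoprotein genes fell, as did 1 of 5 endoglucanase, 1 of 11 callose synthase and 1 of 6 proton pump genes. None in these lists rose. Among them were Pp1s81_246V6, matched to XTH9, 31.2-fold lower (95% interval 21.5 to 47.2), and Pp1s236_72V6, 35.3-fold lower (95% interval 22.4 to 58.9). Pp1s35_242V6, matched to the extensin gene LRX1, was 27.6-fold lower (95% interval 12.4 to 76.0) and Pp1s65_194V6, matched to ATCSLA09, 12.9-fold lower (95% interval 8.35 to 20.8). Pp1s37_355V6 (GH9C2), Pp1s160_88V6 (GSL10) and Pp1s321_30V6 (HA6) were 7.03-, 6.53- and 5.05-fold lower. Of 11 genes tested in the pectin methylesterase list 2 fell, with Pp1s149_288V6 11.7-fold lower (95% interval 7.74 to 18.6), and 1 rose, Pp1s14_353V6 (PME31), 5.93-fold higher (95% interval 3.78 to 9.72). Of 4 beta-galactosidase genes tested 1 rose, Pp1s149_266V6, 5.69-fold higher (95% interval 3.68 to 9.12).

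The counts of these genes rest on tags that match 1 gene. Tags of several genes had been removed by the authors, so that expansins with identical sequence beside the tag site would have lost those tags, and how many this concerned was not analysed here. The scaling did not decide any direction of the 4 genes. Over TMM, total tags, clean tags and DESeq2 size factors, Pp1s11_29V6 was between 364- and 535-fold higher at 48 h than at 24 h and at least 516- to at least 679-fold lower at 72 h. All 4 genes were called in both steps under each of these scalings. In these steps their changes were 54.7-fold or more, far beyond the differences between scalings. Neither a direction nor a call could therefore have turned there. Over all genes the balance of calls did move: from 24 to 48 h 1074 rose and 985 fell by TMM, and 750 rose and 1323 fell by total tags. From 48 to 72 h the numbers were 969 and 901 by TMM and 783 and 1118 by total tags.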

How the data were processed

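Tag counts of 18800 genes in 4 libraries, 1 per time point, were used. Per the methods of the study, the authors removed tags with adaptor sequence, ambiguous bases, a wrong length or a single copy, mapped the rest with Bowtie to gene sequences with at most 1 mismatch, dropped tags of several genes, summed the tags of a gene and deposited these counts. A second deposited column, headed TPM, holds tags per 100000 clean tags, and served only to derive the clean tags of each library. Clean tags were 3314401, 2743030, 2986395 and 3373054, of which 67.8%, 63.8%, 65.8% and 72.5% were counted on genes.

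The study scaled libraries by TMM in edgeR and asked for a 4-fold change with limits on both the p-value and the false discovery rate. Without replicates no test was used for the values reported here, and a call was a change of at least 4-fold in TMM-scaled counts with at least 100 tags in the higher library and 10 in the pair, a count of 0 being set to 3 tags. TMM factors were 1.18, 1.33, 0.914 and 0.694. The functions were tested on simulated data. Gene lists were drawn from the symbols and descriptions of the Arabidopsis matches. The members, lists and rules were chosen with earlier results of these data known. Named genes are the 4 members, other expansins with at least 100 tags in a library, the 3 genes nearest to each member, and, for each wall list, step and direction, the called gene whose interval or bound lies farthest from 1 (antenna genes, listed for context, in part). The remaining expansins were named after their values were seen. No sequence or genome position of these genes was used here. The work used Python 3.11.15 (with numpy 2.4.6, pandas 2.3.3, scipy 1.17.1 and, for plots, matplotlib 3.10.9) and, under R 4.3.3, the packages DESeq2 1.42.0 and edgeR 4.0.16.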

Additional observations from a re-analysis of the deposited data

How the results depend on the processing

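With 1 library per time point, no replicate could be left out and the spread between cultures is unknown. Of 56 recomputed changes of the 4 genes (other scalings, a 0 set to 1 tag, and TMM without the 72 h library, the last chosen after seeing the data), 0 changed direction. Of these, 20 concern the 4 changes with tags in both libraries and stayed within their counting intervals. Setting a 0 to 1 tag cannot alter these 4 changes, so that this part of the agreement was fixed in advance. The other 36 concern the 8 bounds against a count of 0, which have no such interval: other scalings took them to between 0.685 and 1.32 times their value, and setting a 0 to 1 tag to 3 times. The bounds of Pp1s466_14V6 and Pp1s147_37V6 at 48 h against 24 h were lowest by total tags, 66.5 and 92.7.

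Without the minimum of 100 tags, 13 expansins in place of 8 were called higher from 24 to 48 h, and 2 higher and 3 lower in place of 1 and 1 from 0 to 24 h. Per 1000000 clean tags the sum of the expansins was 209, 156, 2631 and 45.1 at 0, 24, 48 and 72 h, and without Pp1s11_29V6 it was 3167 CPM at 48 h. Adding edgeR's exact test at a dispersion of 1e-09 removed no call in the 3 steps, but at counting error alone a 4-fold change with 100 tags passes by construction, so this says nothing of stability. Total tags moved the median log2 change of all genes by 0.18, -0.55 and -0.40 in these steps, and clean tags by 0.09, -0.50 and -0.26. Over all genes, the calls higher and lower were 1414 and 1746, 2203 and 3215, and 2321 and 2139 without the minimum of 100 tags. At a limit of 2-fold they were 955 and 1735, 1871 and 1671, and 1591 and 1564. At a minimum of 50 tags, 603 were higher from 0 to 24 h and 1691 lower from 24 to 48 h, where 368 and 985 were called at 100 tags.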
